A study of Homo sapiens with 8 samples.

Results

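HSPA5, HSP90B1, HYOU1, CALR, CANX, CRELD2, SDF2L1, MANF, DNAJB11 and DNAJC3 are genes of the endoplasmic reticulum (ER) that encode HSPA5, the HSP70 chaperone of that compartment, and the chaperones and co-factors that work in the same folding machinery. The genes were taken by name and found through their Ensembl identifiers in GENCODE 44, and 10 of 10 were present among the 58302 genes of the count table. They were listed with their difference between the groups already known, so the differences given for them are a description of these libraries and not independent evidence.

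RNA-seq was performed on A549 cells, an established line from a human lung adenocarcinoma, transiently transfected with an siRNA against APEX1, the gene of the DNA repair endonuclease APE1 (4 libraries labelled siAPEX1), or with a scramble control siRNA (4 libraries labelled siCTRL). All 8 libraries came from the same line, underwent a transient transfection and were made from total RNA with a small-RNA kit that tails the 3′ end of each RNA, modified so that primary miRNA transcripts are read as well. The study describes the 4 libraries of a group as biological replicates, while the labels name no separate cultures, and p-values measure the spread between these libraries. APEX1 had between 47 and 64 counts in the libraries labelled siCTRL and between 19470 and 27916 in those labelled siAPEX1, higher in the libraries labelled as silenced. Reads of the transfected siRNA, which was designed against APEX1, could be counted on this gene together with its transcript. Which reads make up these counts was not tested, so they are not taken as a measure of the silencing. The study assessed the silencing by protein level (not analysed here). Directions below follow the labels of the libraries, and whether the labels are right was not tested.

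In the ER lumen, HSPA5 (also called BiP) binds exposed hydrophobic stretches of new polypeptides and releases them in a cycle of ATP hydrolysis that J-domain proteins start and nucleotide exchange factors complete. HSP90B1 acts on a narrower set of clients, and calnexin and calreticulin hold glycoproteins through their sugar chains. When unfolded proteins build up, sensors in the ER membrane start the unfolded protein response, in which the transcription factors ATF6 and XBP1, together with the CCAAT-binding factor NF-Y, raise the transcription of chaperone genes through the ER stress response element (ERSE) of their promoters.

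The ERSE was sought in promoter windows from RefSeq (GRCh38.p14), 300 bases long, from 250 bases before to 50 after each annotated start, on both strands. Windows were found for 10 of the 10 genes, 13 in all, since a gene can have several annotated starts. The exact element, CCAAT and CCACG with any 9 bases between them, was present in 5 of the 10 genes, against 27 of all 35116 windows (0.0769%) and 13 of the 4098 tested genes that have a window (0.317%), the 5 included. The 6 copies are shown as a sequence feature shared by 5 members. The element is known from the promoters of chaperone genes, so its presence here is a description and not independent evidence. Each is written 5′ to 3′ on the strand that carries the match, and the capitals mark the CCAAT and CCACG parts.
HSPA5: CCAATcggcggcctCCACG
HSP90B1, distal copy: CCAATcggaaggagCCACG
HSP90B1, proximal copy: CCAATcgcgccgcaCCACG
CALR: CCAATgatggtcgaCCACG
CANX: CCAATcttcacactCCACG
CRELD2: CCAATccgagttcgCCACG
The copy of HSPA5 lies at chr9:125241391-125241409 (minus strand), those of HSP90B1 at chr12:103930216-103930234 (plus strand) and chr12:103930321-103930339 (minus strand), and that of CALR at chr19:12938384-12938402 (minus strand). The copy of CANX lies at chr5:179698778-179698796 (plus strand) and that of CRELD2 at chr22:49918554-49918572 (minus strand). The copy of CANX lies before a later start, since the annotated gene begins at chr5:179678628. The copies of HSPA5, CANX and the distal copy of HSP90B1 read in the direction of the gene and the other copies read against it.

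A shorter variant, ERSE-II, which is ATTGG and CCACG with any 1 base between them, was present in HYOU1 and SDF2L1, which had no match to the longer element. It was found in 19 of the 35116 windows (0.0541%) and in 9 of the 4098 tested genes (0.22%). The copies are shown with the 2 parts of the element in capitals.
HYOU1, both copies: ATTGGaCCACG
SDF2L1: ATTGGtCCACG
Those of HYOU1 lie at chr11:119057274-119057284 and chr11:119057380-119057390 (plus strand, against the gene), and that of SDF2L1 at chr22:21642114-21642124 (minus strand). The second copy of HYOU1 overlaps a match to the unfolded protein response element TGACGTGG, at chr11:119057386-119057393 (minus strand), which 0.729% of all windows hold. CCAAT alone was present in 10 of the 10 genes, against 44.3% of the tested genes. It was also common in the related lists described below, among their genes with a window. It was in 80.8% of the lectin cycle and other ER folding factors and in 68.2% of the unfolded protein response regulators. The share was 66.7% for the further partners in the HSPA5 cycle and 35.3% for the chaperones outside the ER. MANF, DNAJB11 and DNAJC3 had no exact match to ERSE, ERSE-II or TGACGTGG, which says only that these letters are not in the windows searched.

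Of the 10 genes, 9 were lower in the libraries labelled siAPEX1 at an adjusted p of at most 0.05 (edgeR quasi-likelihood test, Benjamini-Hochberg adjustment over 5368 genes tested), and 0 were higher. Of all genes tested, 15.8% were called lower by the same rule. The same 9 genes also had a log2 fold change of −1 or below, against 5.68% of all genes tested, and the exception was CANX. In each of the 10 genes, the 4 libraries labelled siAPEX1 lay below the 4 labelled siCTRL in CPM, which are counts relative to the library total after TMM scaling, which was the case for 14.9% of all genes tested. The median log2 fold change was −1.23 over the 10 genes and −0.0035 over all genes tested. All 10 genes passed the filter on low counts, CRELD2 only through siCTRL, where it was higher. The members are among the more abundant mRNAs of these libraries, and of the 1406 nuclear protein-coding genes tested that were at least as abundant as the least abundant member, 22.9% were called lower and 4.48% were called lower past the fold threshold, with a median of −0.02. In bulk RNA, fewer cells with a transcript and less transcript per cell cannot be told apart.

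Library totals were between 1639796 and 1949886 counts for siCTRL and between 1348386 and 1619500 for siAPEX1, without overlap, and the share of nuclear protein-coding genes without APEX1 was 14.99% to 15.7% against 12.0% to 12.7%. Fold changes refer to the TMM scale, on which the median of all genes was −0.0035. With every library thinned to the total of the smallest, 9 of the 10 genes were called lower with a median of −1.21, and with TMM factors from nuclear protein-coding genes alone 9 were called with a median of −1.18. The 7 markers of A549 cells used to check the line had between 18 and 1175 counts in every library, with 4 of them called lower and 1 higher, and of 8 markers of other cell types none exceeded 11 counts in a library (COL1A1) and CD3E and PECAM1 were at 0.

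The HSP70 and HSP90 family chaperones of the group are HSPA5, HSP90B1 and HYOU1. HSPA5 (ENSG00000044574, chr9:125234853-125241382, minus strand, GRCh38) is the central HSP70 of the ER. It had 514, 651, 695 and 614 counts in siCTRL replicates 1 to 4 and 202, 176, 152 and 217 counts in siAPEX1 replicates 1 to 4. Its level was 309 ± 35.2 CPM (SD, n = 4) in siCTRL and 148 ± 28.5 CPM (SD, n = 4) in siAPEX1, a log2 fold change of −1.07 ± 0.110 (SE, edgeR adjusted p = 2.09e-10). The highest siAPEX1 library, replicate 4, was well below the lowest siCTRL library, replicate 1. HSPA5 was close to the fold threshold, and without siAPEX1 replicate 3, its lowest library, its log2 fold change was −0.92.

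HSP90B1 (ENSG00000166598, chr12:103930107-103953931, plus strand), also called GRP94, is the HSP90 of the ER. It was the most counted member, with 1484, 1615, 1715 and 1437 counts in siCTRL replicates 1 to 4 and 438, 384, 465 and 475 counts in siAPEX1 replicates 1 to 4. Its level was 779.6 ± 23.1 CPM (SD, n = 4) in siCTRL and 346 ± 28.8 CPM (SD, n = 4) in siAPEX1. The log2 fold change was −1.17 ± 0.0890 (SE, edgeR adjusted p = 6.39e-14), which left 44.4% of the siCTRL level. The libraries of a group lay close together, with coefficients of variation of 2.96% in siCTRL and 8.32% in siAPEX1. Counting alone would give 2.53% and 4.76%.

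HYOU1 (ENSG00000149428, chr11:119044188-119057227, minus strand), also called GRP170, is a large relative of HSP70 that serves HSPA5 as a nucleotide exchange factor. It had 136, 120, 157 and 116 counts in siCTRL replicates 1 to 4 and 22, 14, 14 and 23 counts in siAPEX1 replicates 1 to 4. The level fell from 65.9 ± 6.24 CPM to 14.5 ± 4.34 CPM (SD, n = 4 each), to 21.8% of the siCTRL level. Its log2 fold change of −2.19 ± 0.164 (SE, edgeR adjusted p = 3.95e-14) was the lowest of the 10 genes and the 15th lowest of all 5368. Every siAPEX1 library had at most 23 counts of this gene, so the error of its level there (30.0% of the mean) was mostly that of counting (23.4%).

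**Figure D1:**
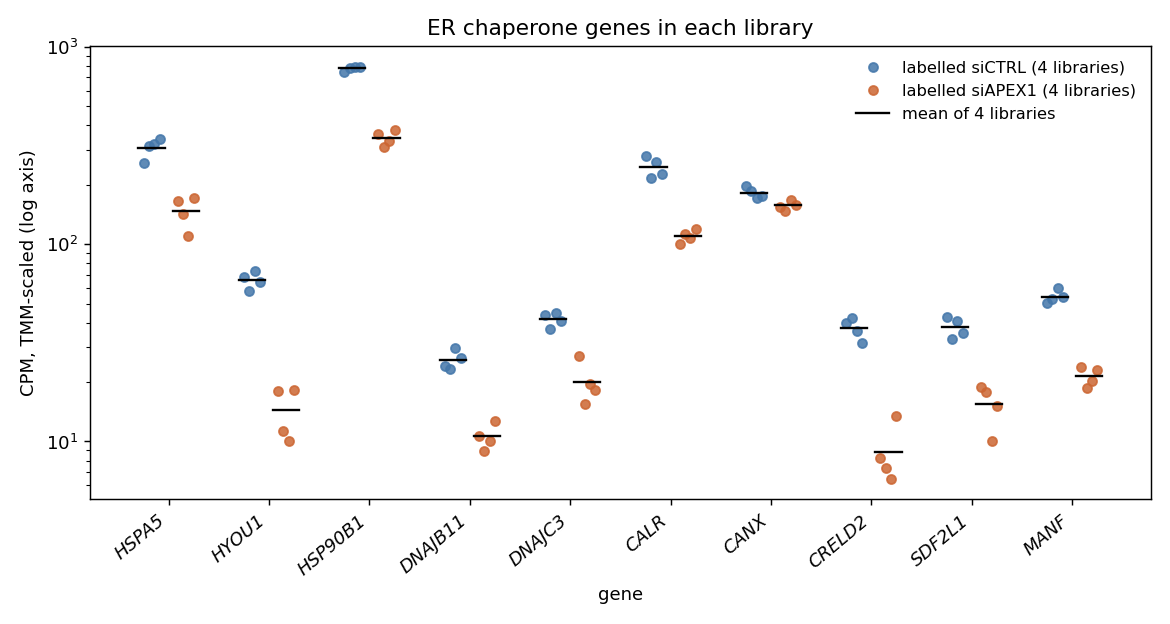
TMM-scaled CPM (log axis) of each of the 10 genes in each of the 8 libraries, with the mean of each group of 4. The siAPEX1 points lie below all siCTRL points in every gene, by a wide gap in HYOU1 and CRELD2 and by a narrow one in CANX, whose groups end at 168 and 171 CPM.

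The lectin chaperones, CALR and CANX, gave unlike values. CALR (ENSG00000179218, chr19:12938578-12944489, plus strand) encodes calreticulin, the soluble chaperone of the glycoprotein folding cycle. It had 558, 447, 565 and 412 counts in siCTRL replicates 1 to 4 and 122, 138, 149 and 150 counts in siAPEX1 replicates 1 to 4. Its level was 247 ± 29.7 CPM in siCTRL and 109.8 ± 7.86 CPM in siAPEX1 (SD, n = 4 each), with a log2 fold change of −1.17 ± 0.103 (SE, edgeR adjusted p = 3.21e-12). The change was of the size of that of HSPA5 and HSP90B1.

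CANX (ENSG00000127022, chr5:179678628-179731641, plus strand) encodes calnexin, the membrane-bound counterpart of calreticulin. It had 394, 385, 369 and 316 counts in siCTRL replicates 1 to 4 and 188, 182, 233 and 200 counts in siAPEX1 replicates 1 to 4. Its level was 183 ± 12.2 CPM in siCTRL and 157 ± 8.45 CPM in siAPEX1 (SD, n = 4 each), a log2 fold change of −0.21 with a 95% interval from −0.40 to −0.02 (adjusted p = 0.081 by edgeR). The interval of CANX lies wholly above the −1.06 of DNAJC3, the smallest change among the other 9. CANX was the only member whose call depended on the settings tried. It passed the threshold with library size as the only scaling (−0.56, adjusted p = 6.53e-06 by edgeR), with all genes that have a count (−0.31, adjusted p = 0.0328) and with a minimum of 10 counts in each library (−0.30, adjusted p = 0.0095), and over all 17 alternatives its adjusted p reached 0.253.

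The ratio of CALR to CANX counts, which does not depend on scaling between libraries, was between 1.16 and 1.53 in siCTRL and between 0.639 and 0.758 in siAPEX1. CALR was thus counted more often than CANX in every siCTRL library and less often in every siAPEX1 library.

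The small lumenal co-factors CRELD2, SDF2L1 and MANF are known as genes that ER stress induces. CRELD2 (ENSG00000184164, chr22:49918167-49927540, plus strand) encodes a secreted, calcium-binding protein of the ER. It had 79, 87, 78 and 57 counts in siCTRL replicates 1 to 4 and 10, 9, 9 and 17 counts in siAPEX1 replicates 1 to 4. Its level was 37.4 ± 4.61 CPM in siCTRL and 8.88 ± 3.16 CPM in siAPEX1 (SD, n = 4 each), with a log2 fold change of −2.08 ± 0.204 (SE, edgeR adjusted p = 5.65e-11). This was the 21st lowest of all genes tested, next to HYOU1 among the members. Its siAPEX1 replicate 4 stood above the other 3 libraries of that group and still below every siCTRL library.

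SDF2L1 (ENSG00000128228, chr22:21642302-21644299, plus strand) encodes a partner of the J-domain protein DNAJB11 that keeps clients of HSPA5 soluble. It had 85, 68, 88 and 64 counts in siCTRL replicates 1 to 4 and 23, 22, 14 and 19 counts in siAPEX1 replicates 1 to 4. Its level was 38.0 ± 4.57 CPM in siCTRL and 15.5 ± 3.95 CPM in siAPEX1 (SD, n = 4 each), and the log2 fold change was −1.31 ± 0.178 (SE, edgeR adjusted p = 1.36e-07). MANF (ENSG00000145050, chr3:51385291-51389397, plus strand) encodes a small lumenal protein that stabilises complexes of HSPA5 with its clients. It had 100, 109, 129 and 98 counts in siCTRL replicates 1 to 4 and 29, 23, 28 and 29 counts in siAPEX1 replicates 1 to 4. Its level was 54.3 ± 4.02 CPM in siCTRL and 21.4 ± 2.43 CPM in siAPEX1 (SD, n = 4 each), and the log2 fold change was −1.34 ± 0.145 (SE, edgeR adjusted p = 6.31e-10). MANF and SDF2L1 thus kept 39.5% and 40.4% of their siCTRL level, and the siAPEX1 libraries of MANF were nearly alike.

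The J-domain co-chaperones DNAJB11 and DNAJC3 start the ATP hydrolysis of HSPA5. DNAJB11 (ENSG00000090520, chr3:186567403-186585800, plus strand), also called ERdj3, binds unfolded clients itself. It had 48, 48, 64 and 48 counts in siCTRL replicates 1 to 4 and 13, 11, 14 and 16 counts in siAPEX1 replicates 1 to 4. Its level was 25.9 ± 2.87 CPM in siCTRL and 10.6 ± 1.58 CPM in siAPEX1 (SD, n = 4 each), with a log2 fold change of −1.28 ± 0.200 (SE, edgeR adjusted p = 1.99e-06). It was the least counted member in siCTRL, and its spread between libraries was below the counting error in both groups. DNAJC3 (ENSG00000102580, chr13:95677139-95794988, plus strand), also called P58IPK, is known too as an inhibitor of eIF2α kinases. It had 87, 77, 97 and 74 counts in siCTRL replicates 1 to 4 and 33, 19, 27 and 23 counts in siAPEX1 replicates 1 to 4. Its level was 41.7 ± 3.40 CPM in siCTRL and 20.1 ± 5.02 CPM in siAPEX1 (SD, n = 4 each), with a log2 fold change of −1.06 ± 0.161 (SE, edgeR adjusted p = 1.24e-06). Its call held in every alternative, but it lay close to the fold threshold, at −0.93 without siAPEX1 replicate 2 and −0.99 without siAPEX1 replicate 4.

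Some members share sequence or position with other genes. HSP90B1 overlaps UQCC6, CRELD2 overlaps ALG12 and DNAJB11 overlaps TBCCD1, each on the opposite strand, and these neighbours had 44, 76 and 19 counts over all 8 libraries together. Whether the counting used the strand is not given in the sources used here, so reads from the shared stretches cannot be told apart. The pseudogenes HSPA5P1, HSP90B2P and HSP90B3P had 1, 11 and 8 counts over all libraries.

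**Figure D2:**
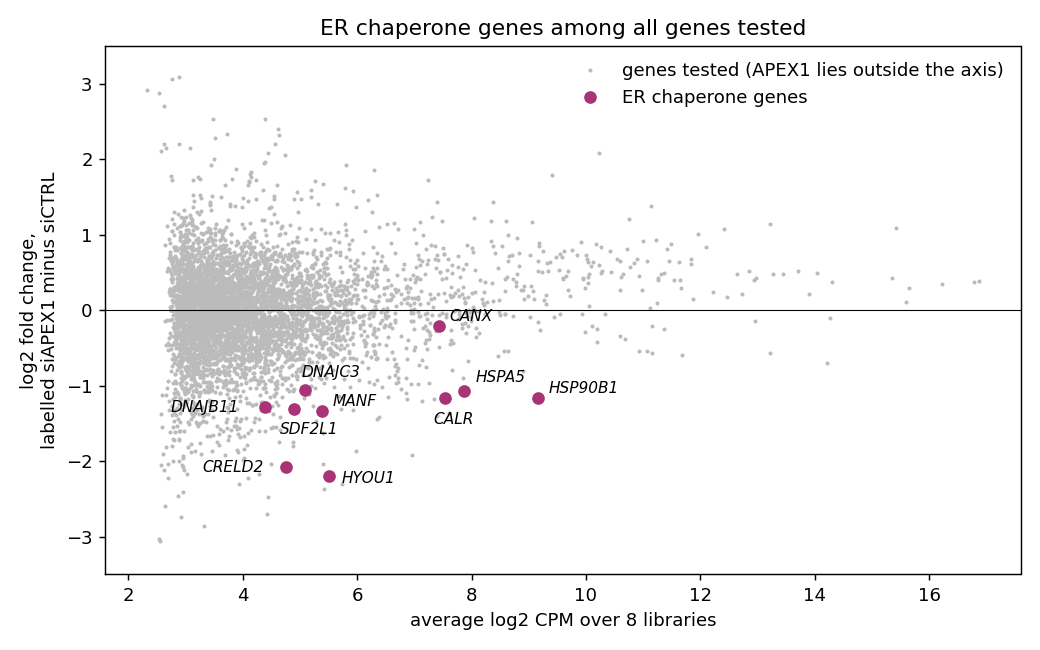
Log2 fold change against mean log2 CPM for all 5368 genes tested (grey), with the 10 genes marked in colour; APEX1 lies outside the axis. HYOU1 and CRELD2 lie near the lower edge of the cloud, most other members between −1.34 and −1.06, and CANX at −0.21.

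The 10 genes together had between 3236 and 3957 counts per library in siCTRL and between 978 and 1169 in siAPEX1. As a share of the counts of nuclear protein-coding genes without APEX1, this was 1.27% ± 0.0321 (SD, n = 4) in siCTRL and 0.607% ± 0.0510 (SD, n = 4) in siAPEX1. The ranges, from 1.24% to 1.31% and from 0.565% to 0.668%, did not overlap. Within the group the proportions moved in some pairs and not in others. HYOU1 had between 0.184 and 0.265 counts for each count of HSPA5 in siCTRL and between 0.0795 and 0.109 in siAPEX1, so the exchange factor was lower relative to its HSP70. The ratio of HSP90B1 to HSPA5 overlapped between the groups, from 2.34 to 2.89 in siCTRL and from 2.17 to 3.06 in siAPEX1. CANX made up between 9.33% and 11.3% of the members' counts in siCTRL and between 17.1% and 21.1% in siAPEX1.

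Levels were compared between genes as CPM per kilobase of the canonical transcript. In siCTRL the order was HSP90B1 (280 ± 8.29 CPM per kilobase, SD, n = 4), CALR (130 ± 15.6), HSPA5 (78.8 ± 8.97), MANF (59.7 ± 4.42), SDF2L1 (46.0 ± 5.53), CANX (37.2 ± 2.49), CRELD2 (26.2 ± 3.23), DNAJB11 (15.8 ± 1.75), HYOU1 (14.3 ± 1.36) and DNAJC3 (7.47 ± 0.609). The ranges of SDF2L1 and CANX overlapped, as did those of DNAJB11 and HYOU1, and the other neighbours lay apart. In siAPEX1 the order was HSP90B1 (124 ± 10.4 CPM per kilobase), CALR (57.7 ± 4.13), HSPA5 (37.7 ± 7.26), CANX (32.0 ± 1.72), MANF (23.6 ± 2.68), SDF2L1 (18.8 ± 4.79), DNAJB11 (6.47 ± 0.965), CRELD2 (6.22 ± 2.21), DNAJC3 (3.59 ± 0.899) and HYOU1 (3.14 ± 0.944). The first 3 places were the same in both groups, CANX moved up from place 6 to 4 and HYOU1 moved to the last place. In siAPEX1 the ranges of HSPA5 and CANX, of MANF and SDF2L1, and of each neighbouring pair among the last 4 overlapped. The order rests on the length used, since with the length of all annotated exons only 2 of the 10 genes kept their place in siCTRL and CALR came before HSP90B1.

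**Figure D3:**
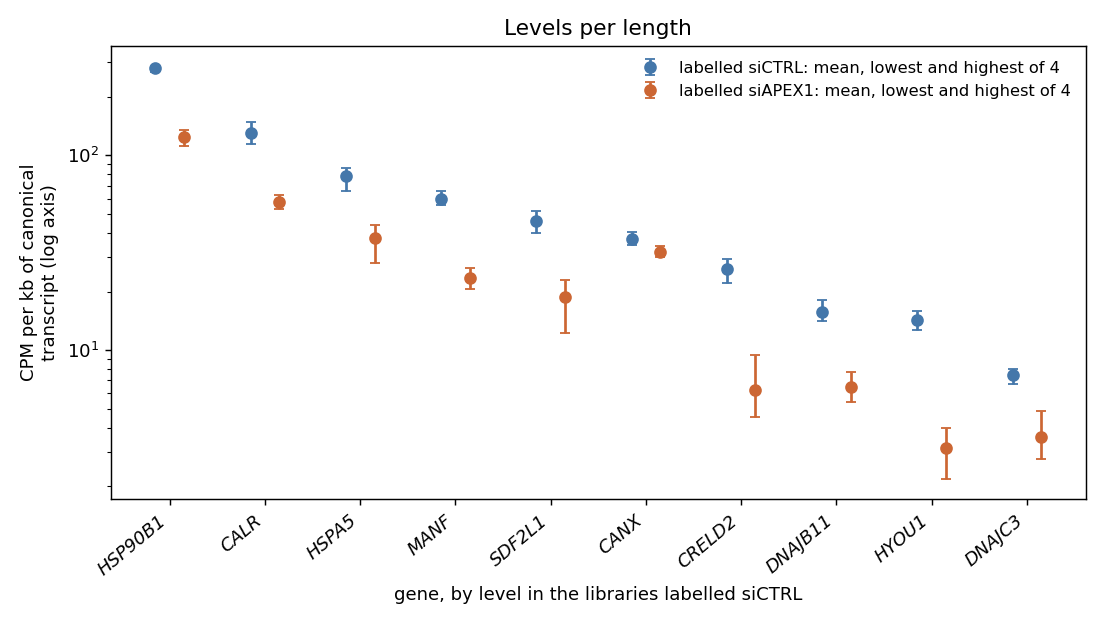
CPM per kilobase of the canonical transcript (log axis) of the 10 genes in both groups, as means with the range over 4 libraries. HSP90B1 leads in both groups, and HYOU1 goes from place 9 to 10 while CANX goes from 6 to 4.

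Other genes of the same pathway were counted from lists made by function. Of all genes tested, 15.9% were called higher and, as given above, 15.8% lower. Of 7 further partners in the HSPA5 cycle, 7 were tested, 2 were called lower and 0 higher, and the median log2 fold change was −0.41. DNAJC10 (ERdj5), a J-domain reductase, was at −1.11 (standard error 0.156, adjusted p = 2.66e-07 by edgeR). FICD, which adds AMP to HSPA5 and removes it, was at −1.03 (adjusted p = 0.0150 by edgeR), on 3 to 20 counts per library, and missed the threshold with DESeq2, run on all 22272 genes that have a count (adjusted p = 0.168), and without siAPEX1 replicate 3 (0.0846) or 4 (0.0890). The exchange factor SIL1, which serves HSPA5 as HYOU1 does, was at −0.14 (adjusted p = 0.798 by edgeR), and DNAJB9, another J-domain protein of the ER, at −0.26 (adjusted p = 0.227). These last 2 genes were picked for their role after their values were seen. FICD passed the filter on low counts only through siCTRL, with 13 to 20 counts there and 3 to 8 in siAPEX1.

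Of 30 genes of the lectin cycle and other ER folding factors, 27 were tested, 12 were called lower and 1 higher, with a median of −0.58. The lowest were the collagen prolyl isomerase FKBP10 (−2.03, standard error 0.212, adjusted p = 2.77e-10 by edgeR) and the disulfide isomerase PDIA4 (−1.92, standard error 0.109, adjusted p = 8.87e-18). CRELD1, the relative of CRELD2, was at −1.48 (adjusted p = 0.00014 by edgeR) and the calcium-binding protein NUCB2 at −1.32 (adjusted p = 1.07e-10). FKBP10 had 54 to 73 counts in siCTRL and 6 to 13 in siAPEX1, and CRELD1 had 21 to 29 and 3 to 8. FKBP10 and CRELD1 passed the filter on low counts only through siCTRL, where they were higher. The gene called higher was ERO1A, the oxidase that supplies disulfide isomerases with oxidising power, at 0.81 (standard error 0.160, adjusted p = 9.72e-05 by edgeR). Its counts were 35 to 42 in siCTRL and 37 to 44 in siAPEX1, so the groups overlapped in counts and separated only after scaling.

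Of 24 regulators and ERAD genes of the unfolded protein response, 18 were tested, 7 were called lower and 1 higher, with a median of −0.43. This median depended on the filter and the scaling. With a minimum of 10 counts in each library 12 genes were tested, 3 were called lower and the median was −0.27. With DESeq2 it was −0.27 over 24 genes, with 5 called lower. With library size as the only scaling it was −0.77, with 12 of 18 called lower. ATF6, one of the factors that act on the ERSE, was at −1.06 (standard error 0.254, adjusted p = 0.0011 by edgeR), with 29 to 39 counts in siCTRL and 5 to 13 in siAPEX1. The degradation factors EDEM1 (−1.30, adjusted p = 0.00065 by edgeR), OS9 (−1.05, adjusted p = 9.54e-06) and DERL1 (−1.001, adjusted p = 0.0045) were also lower. DERL1 missed the threshold with DESeq2 (adjusted p = 0.0908). EDEM1 had 17 to 30 counts in siCTRL and 5 to 6 in siAPEX1, and DERL1 had 19 to 26 and 6 to 9. EDEM1, DERL1 and ATF6 passed the filter on low counts only through siCTRL, where they were higher. PPP1R15A, the phosphatase subunit that acts on eIF2α, was called higher at 0.65 (adjusted p = 0.0027 by edgeR). It missed the threshold with library size as the only scaling (0.31, adjusted p = 0.144 by edgeR) and with DESeq2 (adjusted p = 0.0748). Its counts overlapped before scaling, at 36 to 42 in siCTRL and 30 to 56 in siAPEX1. XBP1 was at 0.16 (adjusted p = 0.502 by edgeR), ATF4 at −0.23 (0.233), DDIT3 at 0.34 (0.159) and the sensor ERN1 at −0.23 (0.612). These 4 were also named after their values were seen, and counts per gene do not show the splicing that activates XBP1.

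Chaperones outside the ER, most of them of the HSP70, HSP90 and J-domain families, served as a comparison. HSPD1 and HSPE1 on this list are mitochondrial chaperonin genes and not of these families. Of 17 such genes of the cytosol and mitochondria, 16 were tested, 1 was called lower and 2 were called higher. The median was 0.17 and became −0.17 with library size as the only scaling. HSP90AA1, the inducible cytosolic HSP90, was at 0.58 (standard error 0.0921, adjusted p = 3.29e-06 by edgeR) where its ER relative HSP90B1 was at −1.17. The counts of HSP90AA1 overlapped before scaling, at 327 to 380 in siCTRL and 292 to 388 in siAPEX1. With library size as the only scaling it was at 0.23 (adjusted p = 0.0437 by edgeR). HSPA8, the constitutive cytosolic HSP70, was at −0.15 (adjusted p = 0.423 by edgeR) where HSPA5 was at −1.07. DNAJA2 was at −0.64 (adjusted p = 0.0117 by edgeR; 0.137 with DESeq2). HSPD1, the mitochondrial chaperonin, was at 0.33 (adjusted p = 0.0249 by edgeR), but its call held in only 8 of 17 alternatives. It missed the threshold with DESeq2 (adjusted p = 0.195), with both other filters and in 4 of the 8 fits without a library, and its direction turned to −0.02 with library size as the only scaling. HSPA8 was named after its value was seen, and the difference between the lists was not tested.

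**Figure D4:**
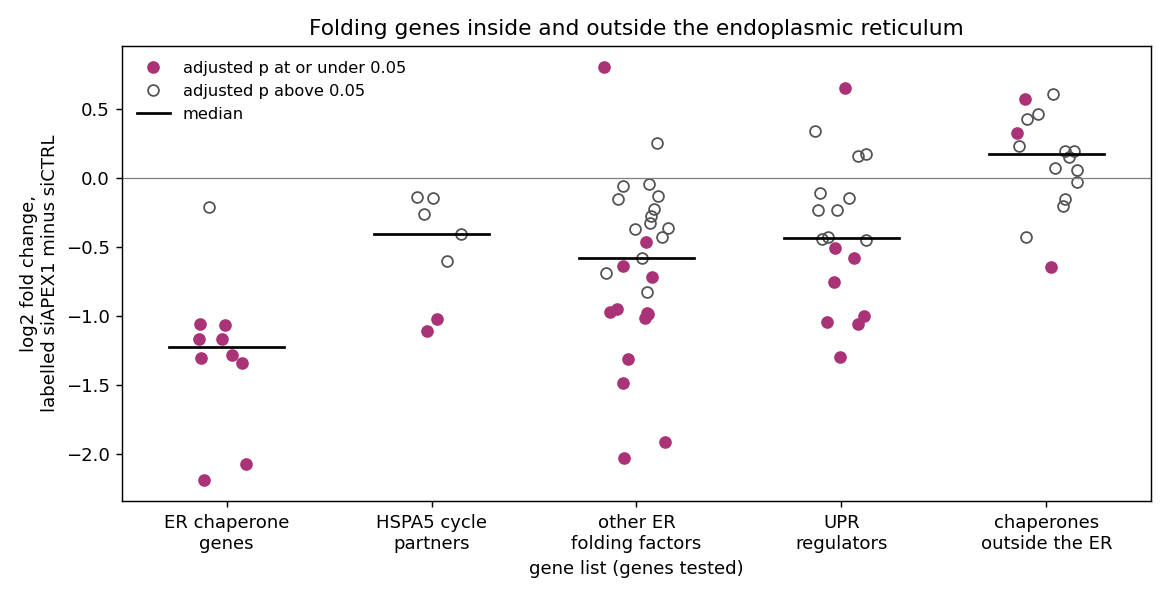
Log2 fold change of every tested gene of the 10 members and of the 4 comparison lists, with filled points for an adjusted p of at most 0.05 and a bar at each median. In the original fit the medians are −1.23 for the members, −0.41, −0.58 and −0.43 for the ER lists and 0.17 for the chaperones outside the ER.

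The presence of the ERSE was set beside the fold changes. Among the members, those with the element ran from −2.08 (CRELD2) to −0.21 (CANX). Those without it ran from −2.19 (HYOU1) to −1.06 (DNAJC3), so the 2 sets overlapped. Of the members without it, HYOU1 and SDF2L1 (−1.31) hold ERSE-II. MANF, DNAJB11 and DNAJC3, with no match to either, ran from −1.34 to −1.06. Among tested nuclear protein-coding genes that are not members, 8 had the element. Their median log2 fold change was −0.42, and 3 of them were called lower and 0 higher. The 3 were TRIM5 (−1.50, adjusted p = 0.00038 by edgeR), FICD, and the disulfide isomerase PDIA6 (−0.95, adjusted p = 6.63e-09), named after their values were seen. XBP1 and SERP1 (−0.09, adjusted p = 0.633 by edgeR) were among the 5 that did not pass. FICD, PDIA6 and XBP1 also belong to the ER lists above, whose medians were −0.41, −0.58 and −0.43. The 4023 genes without the element had a median of −0.03, and 15.3% of them were called lower. For ERSE-II, 7 genes that are not members had the variant, with 1 called lower and 1 higher (14.3% each) and a median of −0.23, against 15.3% called lower among the genes without it. For TGACGTGG, 70 genes that are not members had a match, with a median of −0.26. Of these, 24.3% were called lower and 8.57% higher. Among the 3961 genes without it, 15.2% were called lower and 12.3% higher. These differences by element were not tested.

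The genes whose log2 CPM over the 8 libraries was most like the mean standardised profile of the members were sought among the 3138 genes that had 10 counts or more in each library. They were FN1 (Pearson r = 0.994), GFPT1 (0.992), PDIA4 (0.992), TRAM1 (0.992) and HNRNPAB (0.992). The 8 libraries form 2 groups, so these values mostly give the difference between the groups, and they share library size and scaling. Their own log2 fold changes were −1.87 for FN1 (fibronectin), −0.94 for GFPT1 (the first enzyme of the hexosamine pathway), −1.92 for PDIA4, −0.90 for TRAM1 (a protein of the translocation channel) and −1.22 for HNRNPAB (an RNA-binding protein).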

How the data were processed

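Per the methods of the authors, reads were trimmed with cutadapt and aligned to GRCh38 with STAR 2.5.3a, whose GeneCounts mode assigned them to Ensembl genes. The deposited values are whole, unnormalised counts for 8 samples. CASAVA and DESeq2 also appear in the submitters' processing notes. The annotation release and the strand setting are not given in the sources used here. GENCODE 44 held 57532 of the 58302 identifiers. Groups and replicate numbers came from the labels. The column of siCTRL replicate 3 and the title of its sample share cell line, group and replicate but begin with different running numbers, and were matched by the shared part.

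Counts were tested with edgeR 4.0.16 in R 4.3.3 (TMM factors, quasi-likelihood test, Benjamini-Hochberg adjustment). The 5368 genes tested passed filterByExpr (minimum count 10, minimum total 15) and held 97.5% to 98.1% of the counts. A gene was called at an adjusted p of at most 0.05, and past the fold threshold if its log2 fold change was 1 or more in size as well. Log2 CPM had a prior count of 2. A standard error is the log2 fold change divided by the square root of F. The common biological coefficient of variation was 0.0832. No 2 replicates agreed within sampling noise. The programs were tested on simulated data.

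The members and the lists were chosen with earlier results of these data known. The genes given by name are the members, APEX1, the called genes of each list with the largest change (at most 4 in each direction) and the 5 genes most like the members. Others are said to be named after their values were seen. Alternatives were other scalings, DESeq2 1.42.0, other filters, a fold threshold of 0.75, blocking on the replicate number, and leaving out single libraries. Lengths are of the GENCODE canonical transcript. No table of protein sequences was used.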

Additional observations from a re-analysis of the deposited data

How the results depend on the processing

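Over 17 alternatives between 9 and 10 of the 10 genes were called lower, and between 8 and 9 past the fold threshold, a count of 8 being given without siAPEX1 replicate 2, 3 or 4 and with at least 10 counts in every library, where CRELD2 was not tested. The median log2 fold change lay between −1.28 and −1.13 with single libraries left out and was −1.57 with library size as the only scaling, which moved the median of all genes by −0.34. Relative to that median the members were at −1.22 in the original fit and −1.23 with library size only. Under that scaling 47 genes of the comparison lists were called in place of 26, HSPD1 turned to −0.017, and 88.6% of calls past the fold threshold were lower (655 lower, 84 higher) in place of 61.2% (305 and 193). With all genes that have a count the calls were 648 lower and 295 higher, and with at least 10 counts in every library 100 and 81. DESeq2 was run on all 22272 genes that have a count and called 902 of them, 9 of the members and 18 of the list genes, where edgeR called 1829 of those 22272 and 1703 of the 5368 it tested in the original fit. With the length of all exons 2 of 10 genes kept their place in the level order. Replicate numbers did not pair the libraries (correlations of deviations between −0.037 and −0.0035 for the 4 numbers, and 0 libraries closest to their own number). With the replicate block 9 genes were called, all 9 past the fold threshold, with a median of −1.23 and 26 list genes called, and 1595 genes were called in all. Thinning to the smallest library, the exon length and leaving libraries out of the share of counts were added after the data were seen. The members with the fewest counts were CRELD2 and DNAJB11, at 9 to 17 and 11 to 16 per siAPEX1 library.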

Other observations

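Some genes of the pathway lists had too few counts for a test, and are given here as counts per library only. EIF2AK3 (PERK), a sensor of the unfolded protein response, had 10, 12, 11 and 5 counts in siCTRL replicates 1 to 4 and 7, 6, 8 and 6 in siAPEX1 replicates 1 to 4. The subunits of NF-Y, the factor that binds CCAAT, had 2 to 5 counts in siCTRL and 0 to 5 in siAPEX1 for NFYA, 7 to 15 and 3 to 12 for NFYB, and 4 to 10 and 1 to 5 for NFYC. FKBP14, an ER prolyl isomerase, had 11 to 15 counts in siCTRL and 4 to 8 in siAPEX1. CDNF, the relative of MANF, had 0 to 4 counts in siCTRL and 0 to 2 in siAPEX1.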
